A study of Mus musculus with 13 samples.

Results

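The comparison described here set the duodenum of wild-type mice on a high-fat diet beside that of wild-type mice on a normal diet. It rested on 4 of the 13 arrays of the series, chosen by the genotype and diet in their titles: 2 wild-type arrays on high-fat diet without butyrate and 2 on normal diet. The series also held 2 high-fat and 3 normal diet arrays of mutant mice (labelled ViRas), and 1 wild-type and 3 mutant arrays of mice on high-fat diet with butyrate. All mice had a mixed strain background. Diets began at 5 weeks of age and lasted 22 weeks. Total RNA of the duodenum was hybridised, 200 ng a sample, and the deposited log2 values were used for 12393 named genes, 1 probe set a gene. The array identifiers in the labels run in a separate number range for each diet, so diet and array series cannot be told apart anywhere below. Nothing but the series' text calls the samples separate mice, and p-values measure only the spread between these samples.

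The duodenum is the first stretch of the small intestine. Its enterocytes take up fatty acids and monoglycerides, rebuild triglycerides, pack them with apolipoprotein B into chylomicrons and release these into lymph. The same cells absorb iron, calcium, vitamin A and sugars, and the crypts below them renew the epithelium. Long feeding of fat is known to load this machinery, to supply ligands of the nuclear receptor PPAR alpha and to damp the making of cholesterol in cells that receive it from food. The wild-type comparison asks which of these genes differ between diets in mice without the mutation.

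The arrays carried the markers of the labelled tissue. Over the 4 wild-type arrays the 17 measured duodenum markers had a median level of 10.78 on the log2 scale, from Tmprss15 at 6.30 to Apoa1 at 14.06. Among 12 genes of ileum and colon the median was 4.29, from Slc10a2, the bile acid carrier of the ileum, at 2.07 to Guca2a, the gut hormone guanylin, at 11.11. Values of the 12393 genes correlated at 0.989 between the high-fat arrays, at 0.983 between the normal diet arrays and at 0.975 to 0.977 across diets. Several technical readouts differed between the high-fat arrays without butyrate and the normal diet arrays. The actin control's 3′ minus 5′ signal was 0.32 and 0.42 log2 units on the high-fat arrays and 0.73 and 0.69 on the normal diet arrays, and the same gap was seen in mutants (0.28 and 0.20 against 0.63 to 0.73). The 18S rRNA control read 11.57 and 11.64 on high-fat and 10.44 and 10.92 on normal diet arrays. On the butyrate arrays, also of mice on high-fat diet, it read 8.87 in wild type and 8.79, 9.84 and 9.1 in mutants. Normal diet array 1 stood apart in its spike-in controls: bioB read 10.71 there and 7.45 to 8.61 on the other 12 arrays. Enzymes of the acinar pancreas, which lies against the duodenum, had a list mean of 10.95 and 12.71 on high-fat arrays and of 7.66 and 11.05 on normal diet arrays. None of the 21 measured acinar genes passed the test by limma, and none had an unadjusted p under 0.05, although their median difference was 2.91. The part of these readouts in the diet differences was not tested.

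**Figure D1:**
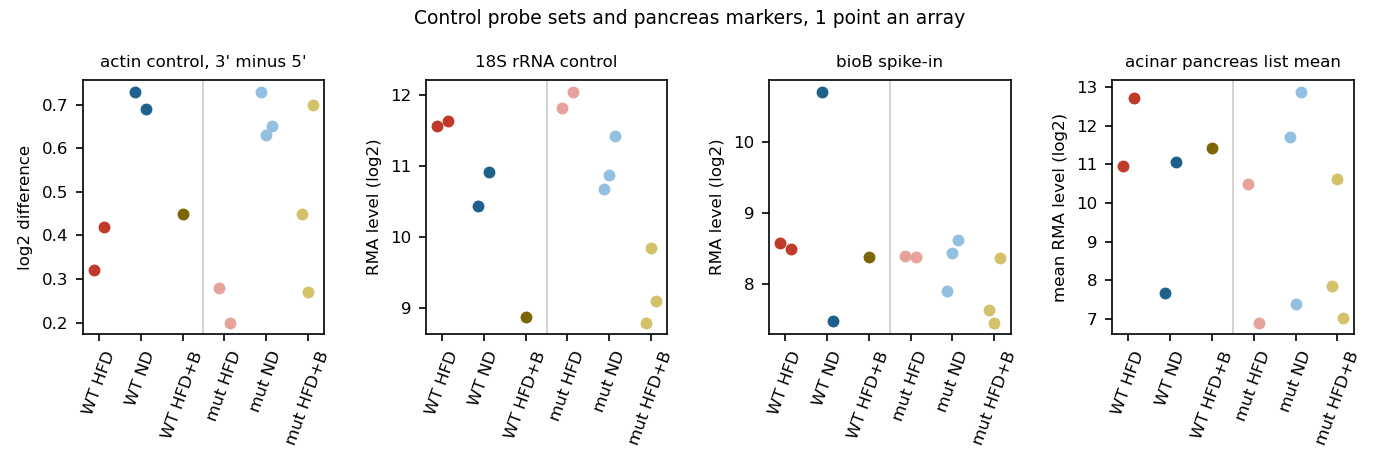
Each point is 1 of the 13 arrays, grouped by genotype and diet (WT, wild type; mut, mutant; HFD, high-fat diet; ND, normal diet; B, butyrate). The panels show the log2 difference between the 3′ and 5′ actin controls, the 18S rRNA control, the bioB spike-in and the mean log2 level of 21 acinar pancreas genes. In each genotype the actin gap is smaller on high-fat arrays without butyrate than on normal diet arrays. On wild-type normal diet array 1 bioB is highest, at 10.71.

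At a Benjamini-Hochberg adjusted p under 0.05 over all genes (limma, 1 estimate of spread from 13 arrays in 6 groups), 1368 of 12393 genes differed between diets, 11.0% of those tested. Of these, 696 (5.62%) were higher and 672 (5.42%) lower on high-fat diet, and 220 (1.78%) differed at least 2-fold. The median difference over all genes was -0.04. With each array centred on its median, 571 genes were higher and 1021 lower, so the share of rises among the calls moved from 50.9% to 35.9%. In 6247 genes (50.4%) the 2 arrays of each diet did not overlap, so groups that do not overlap are common here. The count rested on the spread lent by the other groups: a fit of the 4 compared arrays alone called 116 genes, 111 of them among the 1368. Leaving out high-fat array 1 or 2 left 606 and 439 calls, and leaving out normal diet array 1 or 2 gave 1520 and 965.

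The 15 largest rises, chosen among passing genes whose groups do not overlap, ran from 1.88 to 3.29 log2 units. They were led by a transcription repressor, metal and lactate carriers and chromatin regulators rather than by genes of fat absorption. Zbtb7a, a zinc finger repressor of transcription that also governs red cell and lymphoid fate, read 8.48 and 8.55 on high-fat and 5.01 and 5.45 on normal diet arrays. That is a difference of 3.29 ± 0.16 (SE; 9.76-fold; adjusted p = 2.52e-06). Slc16a3, the MCT4 exporter of lactate, read 8.74 and 8.45 against 5.51 and 5.63, a difference of 3.02 ± 0.22 (8.12-fold; adjusted p = 4.2e-05). Slc11a2, the DMT1 carrier that brings ferrous iron into enterocytes, read 10.49 and 10.20 against 7.69 and 6.69 (8.95-fold). Its normal diet arrays lay a whole log2 unit from each other. Its difference of 3.16 ± 0.77 had an adjusted p of 0.0255, and it passed in 1 of the 4 fits that left out an array: the adjusted p was 0.113 and 0.0982 without high-fat array 1 or 2, 0.0364 without normal diet array 1 and 0.12 without normal diet array 2.

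The remaining large rises were of mixed function. Kdm5a, a demethylase of histone H3 lysine 4, read 6.31 and 6.25 on high-fat and 3.92 and 3.59 on normal diet arrays, a 5.74-fold difference (adjusted p = 2.77e-05). Rest, the repressor of neuronal genes, read 6.57 and 6.62 against 4.47 and 3.96, a 5.21-fold difference, though its other probe sets differed by 0.08 and 0.00 and the mean of the 3 by 0.82 (adjusted p = 0.00412). Tkfc, which phosphorylates the glyceraldehyde made in fructose breakdown, read 10.35 and 10.75 against 8.29 and 8.18, a 4.98-fold difference (adjusted p = 6.75e-05). Lrat, which esterifies retinol for storage or for packing into chylomicrons, read 5.54 and 4.79 against 3.1 and 3.13, a 4.16-fold difference. Akap9 and Prkar2a, an anchor and a regulatory subunit of protein kinase A, rose by 1.99 and 1.89 log2 units. Iqgap2 (2.16), a scaffold of the cytoskeleton, Epn1 (1.99), an adaptor of endocytosis, Man1b1 (1.96), a mannosidase of glycoprotein quality control, Atn1 (1.92), a transcription corepressor, Ocel1 (1.96) and Tmem229b (1.88) completed the set. Of the 15 genes, 14 passed in every fit that left out a wild-type array, Slc11a2 being the exception, and 12 were measured by a single probe set.

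St3gal4 fell furthest, in both wild-type high-fat arrays. The gene encodes a sialyltransferase that caps galactose on glycoproteins with sialic acid. It read 5.97 and 6.44 on the wild-type high-fat arrays and 12.09 and 12.28 on the normal diet arrays, a fall of 5.98 ± 0.15 log2 units (62.9-fold; adjusted p = 2.27e-09). No array outside the wild-type high-fat pair came near the low level: the other 11 arrays of the series ran from 11.10 to 12.28. Among 14 measured sialyltransferases it was the single gene that passed, and the others differed by -0.61 (St6gal1) to 0.42 (St3gal6). A single probe set measures it here. The group held 2 mice of mixed strain background, and a property of these animals and an effect of the diet cannot be told apart.

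Immune and mineral genes followed among the falls. Ubd, the ubiquitin-like modifier FAT10 that interferon and TNF induce, read 3.66 and 3.81 on high-fat and 6.31 and 8.16 on normal diet arrays (adjusted p = 0.000923). The normal diet pair differed from each other by more than a log2 unit, and all the mutant arrays read 3.55 to 4.22. S100g, calbindin D9k, the calcium carrier of the duodenal enterocyte, read 9.86 and 9.26 against 12.31 and 11.67, a 5.37-fold fall (adjusted p = 0.0223). Pla2g2a, a secreted phospholipase of Paneth cells, read 6.01 and 6.42 against 7.83 and 8.48 (adjusted p = 0.0355). The mutant arrays of all diets read 4.65 to 6.92, so the wild-type normal diet pair alone was high. The calls of S100g and Pla2g2a both rested on particular arrays. Without high-fat array 1, high-fat array 2 or normal diet array 1 the adjusted p of S100g was 0.0611, 0.137 and 0.0893. Without high-fat array 1, high-fat array 2 or normal diet array 2 that of Pla2g2a was 0.163, 0.104 and 0.154.

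The other falls were smaller and of mixed function. Socs3, the feedback inhibitor of cytokine receptors that signal through STAT3, read 6.33 and 6.03 on high-fat and 7.64 and 8.57 on normal diet arrays, a 3.79-fold fall (adjusted p = 0.00439). Its other probe sets differed by -1.31 and -0.69. Rasd1, a Ras-related protein that glucocorticoids induce, read 4.87 and 4.86 against 6.37 and 6.94. Atm, the kinase that responds to double-strand breaks in DNA, read 3.74 and 3.65 against 5.58 and 5.34. Akr1b10, an aldo-keto reductase, read 3.53 and 3.53 against 4.96 and 5.58, and its second probe set differed by -0.10. Rps25, a protein of the small ribosomal subunit, read 6.35 and 6.14 against 7.73 and 7.98. Groups that do not overlap were a condition for entry among the 15 falls, and 50.4% of all genes met it. Snrnp48 (-1.86), a part of the minor spliceosome, Ttc14 (-1.76), Bbip1 (-1.65), a part of the cilium's BBSome, Dctn6 (-1.47), a dynactin subunit, Pcp4 (-1.45), a regulator of calmodulin, and Snapc3 (-1.44), which serves the transcription of small nuclear RNAs, completed the 15. For Ttc14 the other probe sets differed by 0.14 and 0.06, for Snapc3 by -0.14 and -0.24 and for Snrnp48 by -0.10, -0.63 and -0.16. Averaged over all probe sets of the gene, the differences were -0.52 for Ttc14, -0.61 for Snapc3, -0.69 for Snrnp48 and -0.92 for Akr1b10, each still past the threshold. Of the 15 falls, 12 passed in every fit that left out an array. Besides S100g and Pla2g2a, Pcp4 failed without high-fat array 2 (adjusted p = 0.0789).

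**Figure D2:**
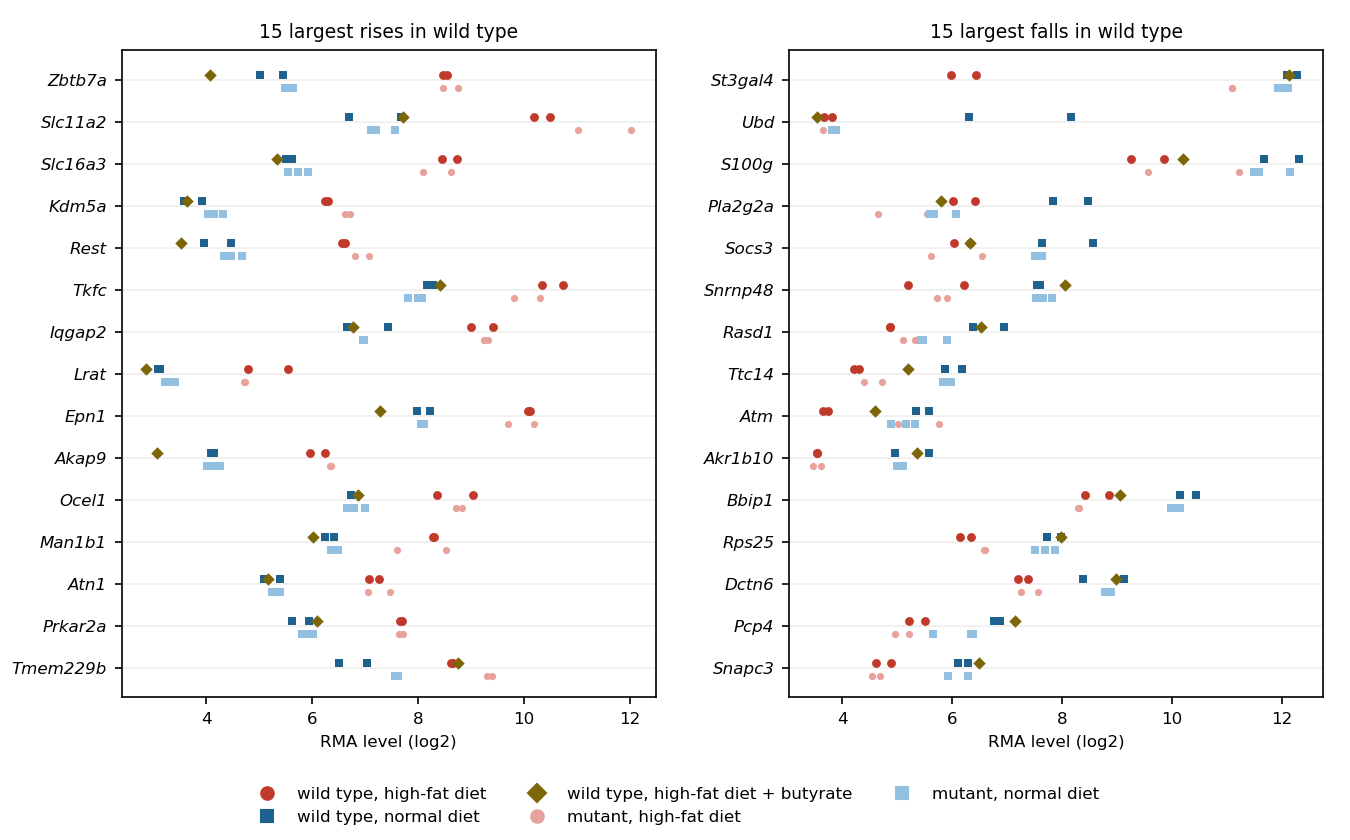
RMA level (log2, horizontal axis) of the 15 largest rises and the 15 largest falls in wild type, 1 point an array: wild-type high-fat (red circles), normal diet (blue squares) and butyrate (brown diamond) arrays on the upper line of each gene, mutant high-fat and normal diet arrays in pale colours on the lower line. The wild-type butyrate array lies nearer the normal diet mean for 14 of the 15 rises and 10 of the 15 falls.

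Promoters of 4 of these genes are shown because these genes are among the largest changes above and their promoters differ in composition. They are RefSeq sequences of GRCm38.p6, 5′ to 3′ on the gene's strand, from 250 bases before to 50 after the start that the RefSeq promoter table holds. For Zbtb7a and Slc16a3 that start lies inside the gene's annotated span, so other transcripts of these genes begin further upstream. Capitals mark the GC box GGGCGG on either strand (read as its reverse complement on the strand shown), the core of the hypoxia response element ACGTG on either strand and the TATA box TATAAA on either strand. St3gal4 is at chr9:35116815-35117114 (minus strand), S100g at chrX:162964550-162964849 (minus), Zbtb7a at chr10:81136021-81136320 (plus) and Slc16a3 at chr11:120948817-120949116 (plus).
St3gal4: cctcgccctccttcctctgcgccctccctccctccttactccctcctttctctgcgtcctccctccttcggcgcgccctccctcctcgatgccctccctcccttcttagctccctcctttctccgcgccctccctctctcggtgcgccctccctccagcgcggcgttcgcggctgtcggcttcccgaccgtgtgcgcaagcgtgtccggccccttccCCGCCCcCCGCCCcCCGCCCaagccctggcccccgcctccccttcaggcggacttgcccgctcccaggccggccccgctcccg
S100g: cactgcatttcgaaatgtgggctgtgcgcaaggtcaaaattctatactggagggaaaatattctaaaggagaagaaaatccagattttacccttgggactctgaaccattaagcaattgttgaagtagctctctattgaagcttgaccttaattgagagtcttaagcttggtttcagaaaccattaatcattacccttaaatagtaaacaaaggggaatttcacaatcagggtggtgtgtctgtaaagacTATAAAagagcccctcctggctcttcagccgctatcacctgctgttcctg
Zbtb7a: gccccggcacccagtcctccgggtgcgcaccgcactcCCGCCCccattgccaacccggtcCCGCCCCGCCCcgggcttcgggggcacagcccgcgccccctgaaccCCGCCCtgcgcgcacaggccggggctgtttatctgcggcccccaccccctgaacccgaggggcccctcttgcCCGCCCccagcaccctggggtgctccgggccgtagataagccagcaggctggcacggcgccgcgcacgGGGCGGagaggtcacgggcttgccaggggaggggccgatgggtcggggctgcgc
Slc16a3: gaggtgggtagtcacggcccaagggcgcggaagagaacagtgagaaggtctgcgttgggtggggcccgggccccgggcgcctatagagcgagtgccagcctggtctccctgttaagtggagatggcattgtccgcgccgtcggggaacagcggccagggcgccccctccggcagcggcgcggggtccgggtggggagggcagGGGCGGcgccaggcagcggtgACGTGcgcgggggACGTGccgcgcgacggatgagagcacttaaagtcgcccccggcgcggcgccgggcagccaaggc

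The Zbtb7a window held 6 GC boxes at 77.7% GC, and that of St3gal4, which moved the other way, held 3 at 74.0% GC. The Slc16a3 window held 1 GC box and 2 copies of ACGTG at 73.3% GC. The S100g window, at 41.0% GC, held the TATA box and none of the others. Over the 696 genes that rose, the 570 with a promoter in the table had a median of 63.7% GC, and 73.0% of them held GGGCGG. Over the 551 fallen genes with a promoter these values were 59.0% and 57.5%, and over the 9882 tested genes with a promoter 59.3% and 57.5%. ACGTG was held by 26.7%, 24.1% and 23.6% of those promoters, and TATAAA by 5.8%, 10.2% and 10.1%. In all 32851 RefSeq promoters of this length the shares were 35.7% for GGGCGG, 19.6% for ACGTG and 13.6% for TATAAA. Risen genes were also longer, with a median of 26.4 kb against 13.8 kb for fallen and 20.1 kb for all tested genes. These are descriptions of the called genes and were not tested.

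Genes of fat uptake and chylomicron assembly moved little, and those that passed all rose. Of 27 measured members 5 rose and none fell (18.5%, beside 11.0% of all genes), with a median difference of 0.15 beside -0.04. At an unadjusted p under 0.05, 7 were higher and none lower. Slc27a4, the fatty acid transport protein FATP4 of the enterocyte, read 12.16 and 12.07 on high-fat and 11.18 and 11.18 on normal diet arrays, a 1.91-fold rise (adjusted p = 0.000446). Dgat2, which adds the last acyl chain of a triglyceride, read 11.94 and 12.18 against 11.17 and 10.83, a 2.08-fold rise (adjusted p = 0.00191), and its second probe set differed by 1.44. Tm6sf2, which aids the loading of lipid onto lipoproteins, rose 1.47-fold, and Mttp, which loads apolipoprotein B, rose 1.44-fold. Dgat1, the other acyltransferase, rose 1.30-fold, a call lost whichever of the 4 arrays was left out. The second probe set of Mttp differed by -0.20, and with the mean of both Mttp did not pass (0.16; adjusted p = 0.407). Some transcripts near the top of the scale barely differed: Apoa1 by -0.02 and Fabp1 by -0.09. Apoa4, also bright, differed by 0.28 without passing (adjusted p = 0.0542). Apob differed by -0.01, but its arrays lay apart, at 12.78 and 11.49 against 12.35 and 11.95. Cd36, the fatty acid receptor, differed by -0.24 (adjusted p = 0.745). Slc27a4, Dgat2 and Tm6sf2 passed whichever of the 4 arrays was left out. The 5 rises became 3 without high-fat array 1, high-fat array 2 or normal diet array 2, and without the last of these 1 member fell.

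The genes that burn fat did not move as a group. Of 29 genes of fatty acid oxidation and targets of PPAR alpha, 2 rose and none fell (6.90%), with a median of -0.01, and at an unadjusted p under 0.05 there were 4 higher and 3 lower. Acot2, a thioesterase of the mitochondrion, read 6.38 and 6.0 on high-fat and 5.49 and 5.18 on normal diet arrays (1.8-fold). Ehhadh, of peroxisomal oxidation, rose 1.33-fold (adjusted p = 0.0498). Neither passed without high-fat array 1, high-fat array 2 or normal diet array 2, where the list held 0 rises, and without normal diet array 1 it held 3. The receptor's own transcript, Ppara, differed by 0.63 (adjusted p = 0.189), Cpt1a, the gate of mitochondrial oxidation, by 0.47 and Pdk4, which spares glucose, by -0.60. Angptl4, a PPAR target that inhibits lipoprotein lipase, read 7.07 and 6.70 against 7.91 and 8.08 (-1.11; adjusted p = 0.0858), while in mutants it differed by 0.68. Those Angptl4 groups did not overlap in wild type, as was so in 50.4% of all genes.

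Most genes of cholesterol synthesis were lower without passing. Their median difference was -0.54 over 17 measured members, 14 of them negative, but 2 passed (11.8%), both lower. Sc5d, which sets a double bond in the sterol ring, read 9.0 and 8.85 on high-fat and 9.56 and 9.83 on normal diet arrays, and Pmvk, of the mevalonate pathway, 6.62 and 6.28 against 7.05 and 7.62. The second Sc5d probe set differed by 0.38, and with the mean of both Sc5d did not pass (-0.19; adjusted p = 0.371). Idi1 (-0.93; adjusted p = 0.0833), Fdft1 (-0.90; adjusted p = 0.114) and Hmgcs1 (-0.62; adjusted p = 0.2) did not pass. The arrays of each diet were far apart: Fdft1 read 7.78 and 6.93 on high-fat and 7.82 and 8.68 on normal diet arrays. The list median moved with single arrays, from -0.20 without normal diet array 2 and -0.25 without high-fat array 2 to -0.74 without high-fat array 1 and -0.88 without normal diet array 1, and the falls numbered 0, 0, 2 and 4. In mutants the median was -0.25 and none passed. Of 19 genes of sterol regulation, uptake and efflux, 1 passed: Nr1h4, the bile acid receptor FXR, read 6.83 and 6.98 against 7.68 and 8.23 (2.07-fold lower; adjusted p = 0.0104), with a call kept without high-fat array 2 or normal diet array 1 and lost without the others. The sterol exporter Abcg8 differed by 0.97 (adjusted p = 0.0885) and the lipogenic factor Srebf1 by 0.95 (adjusted p = 0.0676).

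Lipogenic genes went both ways. Of 16 measured, 1 rose and 1 fell (12.5%; median -0.12). Me1, malic enzyme, a source of NADPH for fatty acid synthesis, read 11.11 and 10.72 on high-fat and 9.62 and 8.87 on normal diet arrays, a 3.19-fold rise (adjusted p = 0.00679). Its second probe set differed by 1.71. Thrsp, which marks lipogenic states, read 5.39 and 4.99 against 5.91 and 6.20, and did not pass with the mean of its probe sets (adjusted p = 0.139). Scd1, the desaturase that makes oleate, read 5.73 and 5.34 against 6.68 and 9.51. That difference of -2.56 did not pass (adjusted p = 0.12), with the normal diet arrays nearly 3 log2 units apart. Without high-fat array 1 the Me1 call was lost (adjusted p = 0.0524). Without high-fat array 2 or normal diet array 2 the list had no fall, and without normal diet array 1 it had 3.

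Among 14 genes of sugar transport, fructose breakdown and gluconeogenesis 2 rose and 1 fell (21.4%; median 0.05). Besides Tkfc, Treh, the trehalase of the brush border, rose 1.60-fold. Slc2a5, the fructose carrier GLUT5 of the apical membrane, read 9.15 and 8.98 on high-fat and 9.78 and 10.23 on normal diet arrays, a 1.93-fold fall (adjusted p = 0.00694). The glucose carriers Slc5a1 and Slc2a2 differed by 0.19 and -0.15. Pck1, of gluconeogenesis, differed by -1.32 without passing (adjusted p = 0.138). Among 14 genes of glycolysis 3 rose and none fell (21.4%; median 0.21), and 6 were higher and none lower at an unadjusted p under 0.05. Pfkl, liver-type phosphofructokinase, read 10.05 and 10.03 against 8.52 and 8.14, a 3.29-fold rise (adjusted p = 0.00462), and its second probe set differed by 1.68. Pkm, pyruvate kinase, rose 1.77-fold, and so did Hk1, hexokinase. Tkfc, Pkm and Pfkl passed in all 4 fits without an array. Treh and Hk1 passed in 1 each, Treh without normal diet array 1 and Hk1 without high-fat array 2. Slc2a5 was lost without high-fat array 2 (adjusted p = 0.0595).

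Several genes of iron and vitamin A handling rose, and the calcium carrier fell. Of 12 genes of iron absorption 3 rose and none fell (25%; median 0.32), and at an unadjusted p under 0.05, 6 were higher and none lower. Beside Slc11a2 they were Epas1, HIF-2 alpha, known to drive iron uptake genes in the duodenum, which read 7.63 and 7.05 on high-fat and 5.74 and 6.03 on normal diet arrays (2.75-fold; adjusted p = 0.00647), and Cp, the ferroxidase ceruloplasmin, which rose 1.98-fold. Cybrd1, the ferric reductase of the brush border, read 8.17 and 7.47 against 5.45 and 5.40. Its difference of 2.39 ± 0.80 did not pass in wild type (adjusted p = 0.0818) and was 4.32 in mutants (adjusted p = 0.00294). Slc40a1, the exporter ferroportin, differed by -0.39, and 1.17 in mutants. No iron gene passed without high-fat array 1, Epas1 having an adjusted p of 0.0526 there. The list held 1 rise without high-fat array 2, and 3 and 2 without normal diet array 1 or 2. The 3 probe sets of Slc11a2 differed by 3.16, 1.56 and 0.41, and in the mean of the 3 the rise was 1.71 (adjusted p = 0.0428). Of 13 vitamin A genes 2 rose and none fell (15.4%; median 0.31; 3 higher and 1 lower at an unadjusted p under 0.05). Rbp2, the retinol binding protein of enterocytes, read 13.52 and 13.71 against 12.42 and 12.26, a 2.42-fold rise (adjusted p = 0.000557) that held in all 4 fits, as did that of Lrat. Of 8 calcium and vitamin D genes, S100g alone passed, and Trpv6, the apical calcium channel, differed by -0.62 (adjusted p = 0.279), with 6.46 on normal diet array 1 and 4.98 to 5.42 on the other arrays of the pair of diets.

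**Figure D3:**
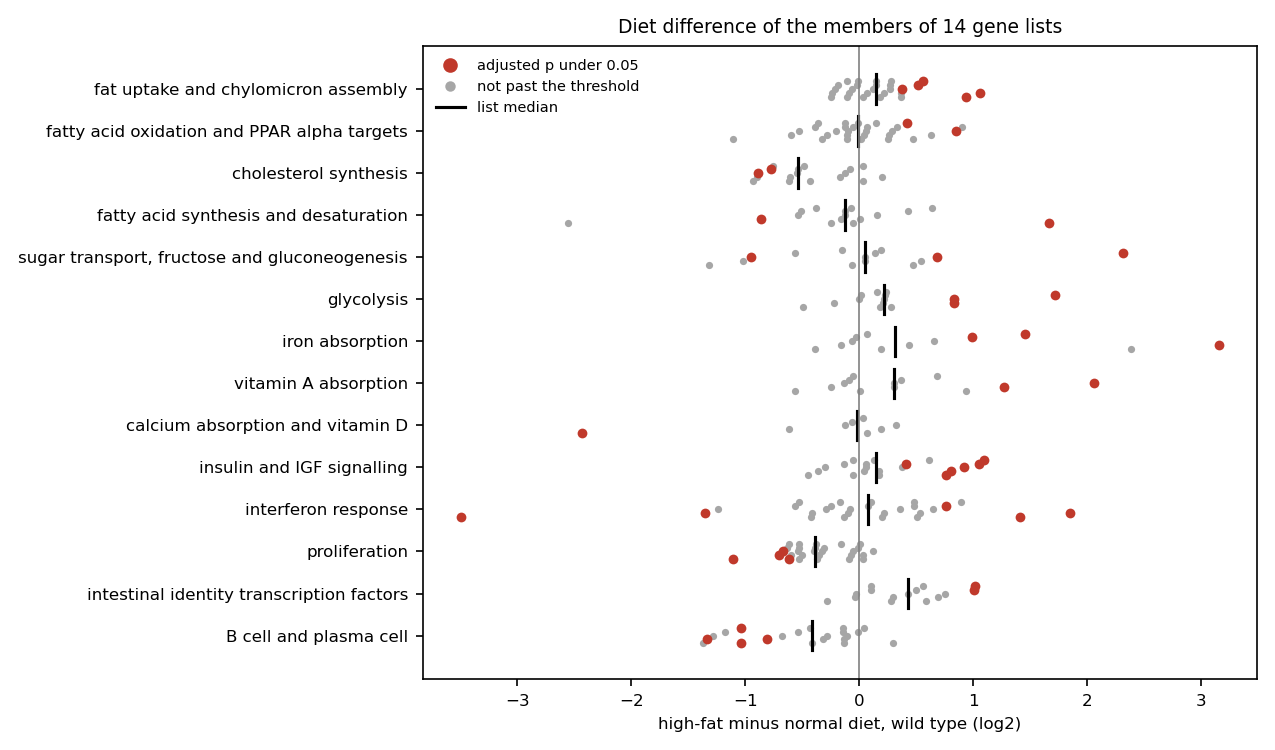
Log2 difference between high-fat and normal diet in wild type (horizontal axis) of each measured member of 14 gene lists. Red points passed at an adjusted p under 0.05 by limma, grey points did not, and black bars are list medians. The medians run from -0.54 (cholesterol synthesis) to 0.43 (intestinal transcription factors).

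The genes that relay the insulin signal and passed all rose. Of 20 genes of insulin and IGF signalling 6 rose and none fell (30%, beside 11.0% of all genes; median 0.15; 7 higher and none lower at an unadjusted p under 0.05). Irs2, the docking protein of the insulin receptor, read 6.64 and 6.63 on high-fat and 5.73 and 5.34 on normal diet arrays, a 2.14-fold rise (adjusted p = 0.00393), and it rose by 2.51 log2 units in mutants. The kinases Akt1 and Akt2 rose 1.75-fold and 1.33-fold, and Pik3r1, the regulatory subunit of PI3 kinase, 1.89-fold. The other Pik3r1 probe sets differed by 0.14 and 0.16, and with the mean of probe sets Pik3r1 differed by 0.41 and did not pass (adjusted p = 0.153), nor did Akt2 (adjusted p = 0.128). Igfbp4 and Igfbp3, carriers of IGF, rose 2.07-fold and 1.70-fold. The receptor genes Insr and Igf1r differed by 0.06 and -0.05. The 6 rises became 2 without high-fat array 1 or 2 and 3 without normal diet array 1 or 2, and Irs2 passed in all 4 fits. Of 15 intestinal transcription factors 2 rose and none fell (13.3%, near the share of all genes; median 0.43; 6 higher and none lower at an unadjusted p under 0.05). Gata6 read 10.13 and 10.08 against 9.15 and 9.04 (2.01-fold; adjusted p = 0.000384), and Gata4, which gives the proximal intestine its identity, 9.36 and 9.45 against 8.56 and 8.21 (2.03-fold; adjusted p = 0.0151). Their second probe sets differed by 1.62 and 1.76. Gata6 passed in all 4 fits without an array. Gata4 passed without normal diet array 1 (adjusted p = 0.0192) and had an adjusted p of 0.0597, 0.0895 and 0.0802 without high-fat array 1, high-fat array 2 and normal diet array 2. Hnf4a, the hub factor of the enterocyte, differed by -0.04.

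Immediate early genes gave 2 rises of 14 (14.3%, near the 11.0% of all genes; median -0.05). Junb read 8.47 and 8.49 on high-fat and 7.31 and 6.93 on normal diet arrays (2.56-fold; adjusted p = 0.00212), and Jun rose 1.86-fold. Junb held without each array. Jun passed in none of the 4 fits, nor with the mean of its probe sets (adjusted p = 0.0567). Of 15 output genes of the ERK pathway 1 fell (6.67%, below the share of all genes). It was Myc, which read 6.39 and 6.03 against 6.83 and 7.37 (1.85-fold lower). The Myc call was lost without high-fat array 2 or normal diet array 2. None of 18 clock genes passed by limma, although 3 were higher at an unadjusted p under 0.05. Nr1d1, REV-ERB alpha, read 8.63 and 8.53 against 7.65 and 7.25 (1.13; adjusted p = 0.0674).

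Interferon genes moved apart from each other. Of 27 measured, 3 rose and 2 fell (18.5%), with a median of 0.08. Ifit1, a sensor of foreign RNA, read 10.68 and 9.98 on high-fat and 8.37 and 8.59 on normal diet arrays (3.60-fold; adjusted p = 0.000742), and Irf7, the factor that amplifies type I interferon, rose 1.69-fold. Ifi44l read 4.38 and 4.21 against 2.92 and 2.84 (2.66-fold; adjusted p = 0.000247), and it differed by 0.01 in mutants (adjusted p of the difference between genotypes 0.0588). Its other probe sets differed by 1.05 and 0.31, and their mean with the first by 0.92. The falls were Ubd and Gbp2, a GTPase that interferon gamma induces, which read 6.56 and 6.12 against 7.06 and 8.34. Normal diet array 2 carried the highest Ubd and Gbp2 of the 4 arrays. Without it the list held 3 rises and 1 fall, and its median was 0.46, while without normal diet array 1 it held 3 and 6 and the median was -0.14. Without high-fat array 1 or 2 there were 2 rises and 1 fall, and 5 and 1. In mutants 8 rose and none fell. Retnlb, the goblet cell protein RELM beta, was high on normal diet array 2 alone, at 8.39 beside 3.85 to 4.12 on the other 3 (adjusted p = 0.162). Of 9 genes of MHC class II presentation 1 passed, H2-Ea, which read 6.87 and 6.79 against 7.57 and 7.45 (adjusted p = 0.0102; 0.0711 without high-fat array 2; a difference of -0.39 with the mean of its probe sets), and the list median of -0.59 became 0.03 without normal diet array 2.

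The B cell genes that passed fell. The T cell, macrophage, and mast cell and granulocyte lists gave 1 or 2 rises. Their called shares of 4.55%, 8.33% and 10.5% were below the 11.0% of all genes. Of 21 B and plasma cell genes 4 fell and none rose (19.0%; median -0.41; 6 lower and none higher at an unadjusted p under 0.05). Cd79b, a chain of the B cell receptor, read 6.05 and 5.93 on high-fat and 7.57 and 7.10 on normal diet arrays (2.54-fold lower; adjusted p = 0.00688). Cd37 and Tnfrsf17, the latter the plasma cell receptor BCMA, fell 2.05-fold, and Fcrla, a protein of germinal centre B cells, 1.76-fold. The other probe set of Cd37 differed by 0.04 and those of Fcrla by -0.01 and -0.16, and with the mean of probe sets neither passed (adjusted p = 0.0675 and 0.0725). The falls numbered 1 and 0 without high-fat array 1 or 2, and 4 and 8 without normal diet array 1 or 2. In a tissue sample fewer cells of a type and less RNA per cell cannot be told apart. The list's mean level was 6.49 and 6.46 on high-fat and 7.22 and 6.79 on normal diet arrays. It was 6.14 on the wild-type butyrate array and 6.02 to 6.44 on the mutant arrays of all diets. In mutants 1 member rose and none fell (median -0.07). The wild-type list median ran from -0.12 without normal diet array 1 to -0.65 without normal diet array 2. Of 22 T cell genes 1 rose, Il2rb (1.68-fold), against a median of -0.20, and its call was lost without high-fat array 1 (adjusted p = 0.0713). Of 24 macrophage genes 2 rose (median -0.08): the receptor Cx3cr1, 1.5-fold, and Laptm5, 1.85-fold, whose probe sets differed by 0.89, -0.67 and 1.07. With the mean of probe sets neither passed (adjusted p = 0.0825 and 0.18). Of 19 mast cell and granulocyte genes Prg2, of eosinophils, rose 2.25-fold and Cpa3, a mast cell protease, 1.49-fold. Cx3cr1 passed in none of the 4 fits without an array, Laptm5 in 1 (without normal diet array 1), Cpa3 in 1 (without high-fat array 2) and Prg2 in 2 (without high-fat array 1 or normal diet array 1).

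Every proliferation gene that passed fell, in wild type as in mutants. Of 28 measured, 4 fell and none rose (14.3%, near the 11.0% of all genes; median -0.39). At an unadjusted p under 0.05, 15 were lower and none higher. Mki67 read 8.78 and 8.71 on high-fat and 9.44 and 9.29 on normal diet arrays (1.53-fold lower; adjusted p = 0.0151). Ube2c, of the anaphase ligase, fell 1.62-fold, the kinesin Kif20a 1.59-fold, and Rrm2, which supplies deoxynucleotides, 2.15-fold (adjusted p = 0.0591 with the mean of its probe sets). Each call rested on single arrays: 0, 1, 7 and 1 members fell without high-fat array 1, high-fat array 2, normal diet array 1 and normal diet array 2. The median stayed between -0.26 and -0.54. In mutants 12 fell (median -0.52), beside 10.1% of all genes that fell there. None of 15 crypt stem cell and Wnt genes passed by limma (2 higher at an unadjusted p under 0.05), and Lgr5, the stem cell receptor, differed by 0.58 (adjusted p = 0.14). Of 17 genes of the p53 response and senescence 1 rose, Zmat3 (1.37-fold), and 2 fell, Atm and Ccng1 (17.6% called; median 0.13). Ccng1 fell by 0.45 with 1 probe set and differed by 0.35 and 0.25 with its others. Neither Zmat3 nor Ccng1 passed in a fit without an array.

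Secretory lineages gave few calls. All 6 measured Paneth cell genes were lower (median -0.71), and Pla2g2a alone passed. None of 14 goblet and none of 23 enteroendocrine genes passed by limma, with 1 higher and 1 lower at an unadjusted p under 0.05 in each list. Of 11 tuft cell genes Alox5ap, which serves leukotriene synthesis, fell 1.53-fold, and it passed in no fit without an array. Of 17 genes of Reg lectins and epithelial defence Il18 fell 1.37-fold, lost without high-fat array 1, high-fat array 2 or normal diet array 2.

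Detoxifying and stress genes shifted one by one. Of 26 genes of xenobiotic metabolism 1 passed (3.85%): Fmo5, a flavin monooxygenase of the gut, read 11.57 and 11.76 on high-fat and 10.28 and 9.90 on normal diet arrays (2.98-fold higher; adjusted p = 0.000377). It held in all 4 fits, and its second probe set differed by 1.98. Of 26 glutathione and NRF2 genes 2 rose and 2 fell (15.4%). Gpx3, a secreted glutathione peroxidase, rose 2.13-fold and Gclm, of glutathione synthesis, 1.95-fold, while Mgst2 and Mgst3, microsomal transferases, fell 1.42-fold and 1.38-fold. None of these 4 held in more than 2 of the fits without an array: the list held 2 rises and 0 falls, none, 3 and 2, and 0 and 3 without high-fat array 1, high-fat array 2, normal diet array 1 and normal diet array 2. In the unfolded protein response Sel1l (1.98-fold) and Calr (1.35-fold) rose and Creld2 (1.68-fold) and Manf (1.57-fold) fell, of 18 genes, and Sel1l, which serves the disposal of misfolded proteins, held throughout. Of 17 ATF4 targets Atf4 itself fell 1.47-fold, in no fit without an array, and Hspe1, a mitochondrial chaperonin, fell 1.44-fold among 11 heat shock genes. Ace, the dipeptidase of the brush border, rose 2.38-fold among 13 brush border genes, with its call lost without high-fat array 1, high-fat array 2 or normal diet array 2. The metallothionein gene Mt1 read 12.85 and 12.54 against 12.56 and 11.25 (adjusted p = 0.156), and none of 4 genes of that list or of 11 alkaline phosphatases and carbonic anhydrases passed by limma, with 1 and 1 higher and 0 and 1 lower at an unadjusted p under 0.05.

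Neighbouring tissues differed between single arrays. Tff2, a trefoil peptide of stomach and Brunner's glands, read 13.64 and 10.42 on high-fat and 6.96 and 8.15 on normal diet arrays (4.47; adjusted p = 0.241). Gkn2, a stomach protein, read 13.38 on high-fat array 1 and 5.03 to 5.52 on the other 3. None of the 13 genes of that list passed by limma (1 higher at an unadjusted p under 0.05), and its mean level was 7.68 on high-fat array 1 and 5.23 to 5.51 on the others. Ins2, insulin, read 9.93 on high-fat array 2 and 5.84 to 5.99 on the other 3, and none of 4 endocrine pancreas genes passed or had an unadjusted p under 0.05. Lipe, hormone-sensitive lipase, was the single adipocyte gene of 11 that passed, at 9.06 and 9.27 against 7.89 and 7.49 (2.78-fold higher; adjusted p = 0.000504; all 4 fits), while the adipocyte list's mean level was 6.38 and 5.65 against 5.55 and 7.01. Pecam1, of endothelium, rose 2.16-fold (lost without high-fat array 2 or normal diet array 2), and Timp3 and Col1a2, of fibroblasts, 1.87-fold and 1.54-fold, each in 1 of 4 fits (Timp3 without high-fat array 1, Col1a2 without normal diet array 1), Col1a2 not with the mean of its probe sets (adjusted p = 0.0532). None of 12 smooth muscle, 14 neuron and glia, 5 red blood cell or 12 ileum and colon genes passed by limma, with 3, 1, 0 and 0 lower and 1, 1, 0 and 1 higher at an unadjusted p under 0.05. With the acinar list mean in the fit 905 genes passed, 852 of them among the 1368.

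The mutant mice gave the same direction for most of these genes. Their arrays entered the wild-type test through the shared estimate of spread and the choice of probe set. The same estimate of spread served the calls in both genotypes. On the same diets 2197 genes (17.7%) differed in mutants, 951 (7.67%) higher and 1246 (10.1%) lower. Of the 1368 wild-type calls, 1009 were also called in mutants in the same direction, 73.8% of the wild-type and 45.9% of the mutant calls, and none in the opposite direction. In 1340 of the 1368 (98%) the sign was the same, beside 72.4% of all genes. The risen genes had a median difference of 0.74 in wild type and 0.63 in mutants, and the fallen genes -0.62 and -0.59. Across all 12393 genes, which are not independent of each other, the differences of both genotypes correlated at 0.54 (Pearson) and 0.64 (Spearman). All 15 leading rises were called in mutants, Zbtb7a at 3.04, Slc16a3 at 2.63 and Slc11a2 at 4.22, and 10 of the 15 falls. Both comparisons span the same pair of array series, so diet and series cannot be told apart in either.

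**Figure D4:**
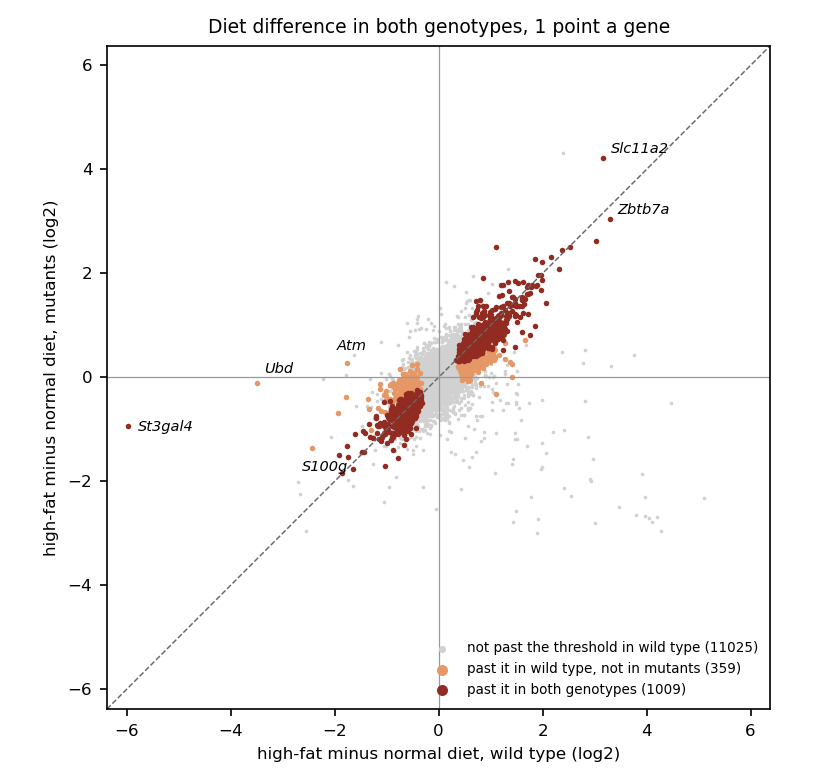
Each point is 1 of 12393 genes, with its log2 diet difference in wild type (horizontal) and in mutants (vertical). Dark red marks the 1009 genes called in both genotypes, orange the 359 called in wild type and not in mutants, and grey the rest. The dashed line marks equal differences. Called genes lie along it, and St3gal4, at -5.98 and -0.93, lies far from it.

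The difference between the genotypes' diet effects was tested directly, and 1 gene passed (0.00807% of those tested; 621 genes at an unadjusted p under 0.05, 149 of them among the wild-type calls). That gene was St3gal4, which differed by -5.98 in wild type and by -0.93 ± 0.13 in mutants (11.10 and 11.10 on high-fat against 11.93, 12.11 and 12.06 on normal diet). The gap of -5.05 had an adjusted p of 4.18e-07. Leaving out an array gave 1 to 10 such genes, 10 of them without wild-type normal diet array 2, and St3gal4 was among them each time. Ubd, at -3.50 and -0.11, had an unadjusted p of 0.000122 for the difference (adjusted p = 0.252). Ifi44l, at 1.41 and 0.01, ran the other way, with an unadjusted p of 9.49e-06 (adjusted p = 0.0588). Irs2, at 1.1 and 2.51, had 0.000102 (adjusted p = 0.252). Atm, at -1.76 and 0.27, had 5.78e-05 (adjusted p = 0.179), and Rasd1, at -1.79 and -0.38, 0.000937 (adjusted p = 0.915). For these 5 genes a difference between genotypes was not shown at this number of arrays.

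The high-fat arrays with butyrate were set beside the wild-type calls as a description. On the single wild-type butyrate array 1015 of the 1368 called genes (74.2%) lay nearer the normal diet mean than the high-fat mean, and in mutants the mean of the 3 butyrate arrays lay nearer the mutant normal diet mean for 1138 (83.2%). Zbtb7a read 4.08 on the wild-type butyrate array, below both normal diet arrays, and Slc16a3 read 5.33. St3gal4 read 12.13, the normal diet level. Tmem229b, at 8.75, was the exception among the leading rises. S100g, at 10.21, Ubd, at 3.54, and Pla2g2a, at 5.80, stayed near the high-fat arrays. All of these mice ate the high-fat diet, and their arrays form the third array series.

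**Figure D5:**
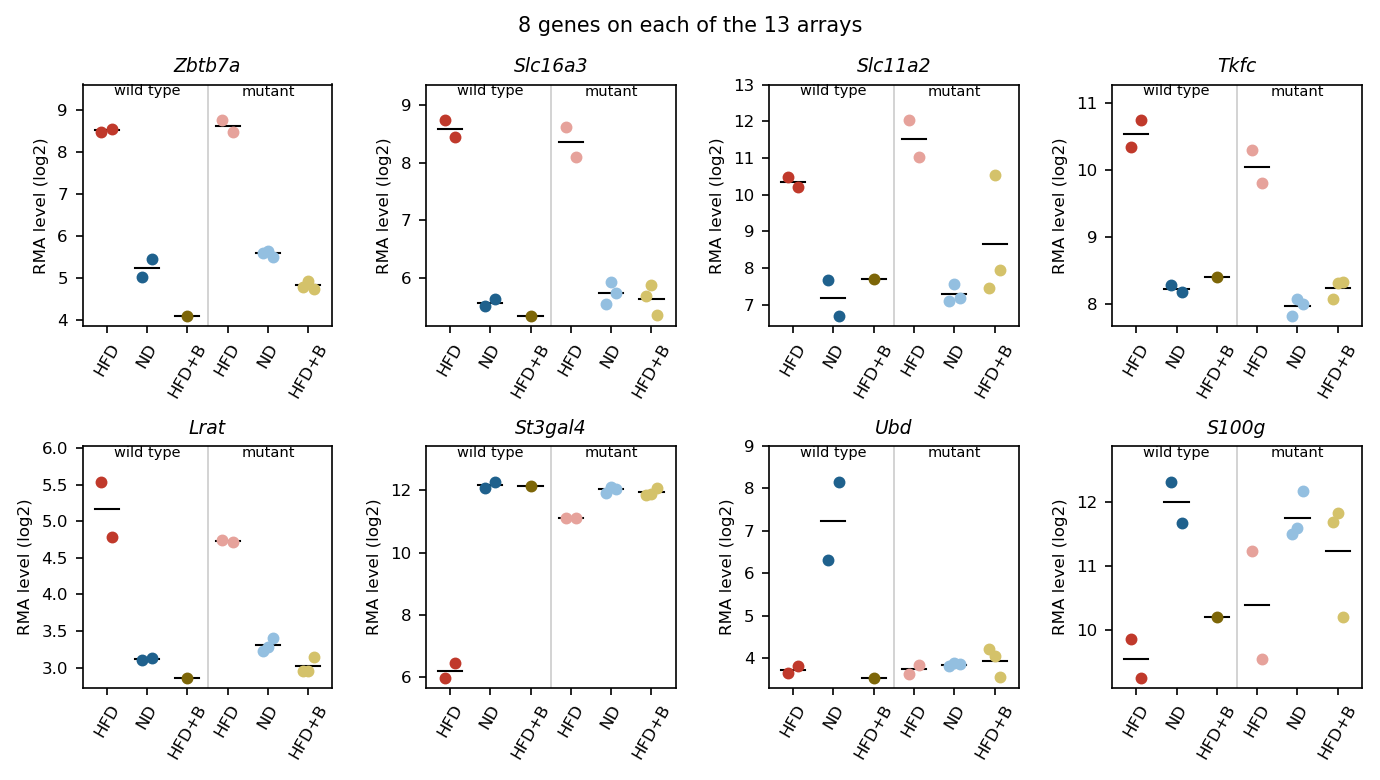
RMA level (log2) of 8 genes on each of the 13 arrays, grouped by diet (HFD, high-fat; ND, normal; HFD+B, high-fat with butyrate) within wild type and mutants. Points are arrays and black lines group means. Zbtb7a reads 8.48 to 8.76 on the high-fat arrays without butyrate and 4.08 to 5.65 on the other arrays, and St3gal4 reads 5.97 and 6.44 on the wild-type high-fat arrays and 11.10 to 12.28 on the others.

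Genes measured by several probe sets gave a check within the arrays. Of the 1368 called genes 639 had over 1 probe set. In 257 of them another probe set passed in the same direction and in 23 another passed in the opposite direction, while in 426 every other probe set differed in the same direction. Xist, the RNA of the inactive X chromosome, was such a case: its 3 probe sets differed by -1.0, 1.84 and 0.36, the brightest reading 10.91 and 10.75 on high-fat and 11.87 and 11.78 on normal diet arrays and the second 8.11 and 7.59 against 5.72 and 6.30. Probe sets of 1 transcript can bind at different distances from its 3′ end. The actin gap given above was smaller on the same high-fat arrays, and its part in these opposite readings was not tested.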

How the data were processed

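Duodenal RNA of 13 mice was measured on Affymetrix arrays. Per the submitters' processing notes, the authors made the deposited log2 values with Expression Console 1.1 and its RMA method. The labels name whole-transcript labelling kits while the probe sets are of a 3′ array design, and their annotation build was not given in the sources used here. Of 22690 probe sets, 20380 had exactly 1 gene symbol, 691 several and 1555 none, and 64 were controls. Each of 12393 genes was represented by its brightest probe set (mean of 13 arrays), of which 4956 had over 1.

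The values were fitted with limma 3.58.1 (R 4.3.3), 6 group means, an intensity trend in eBayes and 7 residual degrees of freedom, with two-sided Benjamini-Hochberg adjustment over all genes in each of 3 comparisons (wild type, mutants and their difference). The fit was checked on simulated data. An exact permutation of 2 against 2 arrays cannot give a two-sided p below 0.333, so none was used. The number of arrays limits the precision. Named genes are the 15 largest rises and falls whose arrays do not overlap, and up to 6 passing members of each of 51 gene lists by smallest p, or the 2 smallest p where none passed, without unnamed gene models. Some genes outside this rule are given as values, chosen after these were seen. Members and lists were chosen with earlier results of these data known. In lists 775 of 895 genes were measured. Replicate numbers did not pair the wild-type arrays (correlation of deviations 0.03). The identifiers of high-fat array 2 in wild type and in mutants share a number that is not explained. Alternatives were other normalizations, centring, filters, probe set rules, array sets, covariates and leaving out each array.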

Additional observations from a re-analysis of the deposited data

Results flagged for a closer look

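The diet effect on St3gal4, a sialyltransferase, differed between the genotypes by a test of that difference: it was -5.98 log2 units in wild type and -0.93 in mutants, a gap of -5.05 (limma, adjusted p = 4.18e-07 over 12393 genes). It was lower on 2 of 2 wild-type high-fat arrays than on any of the other 11 arrays of the series, with 1 probe set and no second measurement. With 2 mice of mixed strain background in that group, a property of these animals and an effect of the diet cannot be told apart.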

How the results depend on the processing

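The wild-type count of 1368 genes was within 1.5 times of itself with quantile normalization (1529), array medians centred (1592), a filter on dim genes (1401), the mean of probe sets (1553), no intensity trend (1322) and 9 arrays without butyrate (1380). It was 637 with array weights, 116 with the compared arrays alone, 905 with the acinar covariate and 220 at 2-fold or more. With a replicate block it was 983, and 21 of the 101 named genes past the threshold then missed it, while 2 others gained it; the numbers do not pair these arrays. Leaving out a wild-type array gave 439 to 1520 calls, and leaving out a mutant array gave 990 to 1522 in mutants (2197 with all). The difference between genotypes gave 2 genes with quantile normalization, the mean of probe sets, the compared arrays alone and the 9 arrays, and 1 to 10 without an array. Of 101 named genes past the threshold 41 passed in each fit without a wild-type array, and 10 in none. With the mean of probe sets the difference of Ccng1 became 0.05 and that of Xist 0.40, so the direction of both depends on that choice; the cause was not tested. Without an array Ins2 ran from -0.04 to 4.02 and Iapp from 0.00 to 1.63, both lowest without high-fat array 2. With 2 arrays a diet and diets in separate array series, small differences of dim genes cannot be resolved.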

Other observations

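Some gene families, picked by symbol after the values were seen and so given without a test, held changed members, as follows. Of 47 cytosolic ribosomal protein genes 19 fell and none rose (median -0.34; 32 lower and none higher at an unadjusted p under 0.05 by limma), with Rpl37 lower by 1.06 and Rpl22l1 by 0.86. Of 74 mitochondrial ribosomal protein genes 25 fell and none rose (median -0.38; 49 lower and 1 higher at an unadjusted p under 0.05), among them Mrpl33, which fell by 0.89. Of 18 genes of small nuclear and Sm ribonucleoproteins, which build the spliceosome, 8 fell and none rose (median -0.45), with Snrpd3 lower by 0.97. Of 39 proteasome genes 5 fell and none rose (median -0.29), with Psmb3 lower by 1.18. In mutants the medians were -0.31, -0.48, -0.46 and -0.21. Respiratory chain genes gave fewer calls: 4 of 39 genes of complex I fell and 1 rose, and 1 of 33 genes of cytochrome oxidase and ATP synthase fell, Cox7c, by 1.05. Of 18 histone genes 3 fell and none rose, with H2az1 lower by 1.27. Over all genes 5.42% fell. The families hold a small part of the 672 falls.

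Solute carriers gave 18 rises and 7 falls among 262 genes (median 0.02), beside 5.62% risen and 5.42% fallen among all genes. They were not called more often than all genes (11.0%). Slc25a44, a mitochondrial carrier, was higher by 1.14 and Slc6a8, the creatine carrier, by 0.92. Of 39 Trim ubiquitin ligases 4 rose and none fell, with Trim30d higher by 1.63 and Trim32 by 1.24. Of 14 genes of protein kinase A and its anchors 3 rose and none fell. Of 24 Zbtb zinc finger genes 2 rose, Zbtb7a and Zbtb7b (0.83), a share not far from that of all genes. None of 40 keratin genes passed by limma, with 1 higher and 5 lower at an unadjusted p under 0.05. Outside the named sets, Jund, a subunit of the AP-1 transcription factor, read 11.35 and 11.43 on high-fat and 9.73 and 9.79 on normal diet arrays (1.64; adjusted p = 3.24e-05), and Ihh, the hedgehog ligand of the intestinal epithelium, read 8.61 and 8.67 against 7.12 and 6.94 (1.61; adjusted p = 0.000244).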
